A study of Rattus norvegicus with 6 samples.

Results

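The proximal tubule metabolism and endocytosis genes are 32 genes chosen by name: receptors and adaptors of protein uptake, enzymes of glucose and amino acid metabolism, brush border peptidases and solute transporters of this part of the nephron. Their members were found as non-control probes whose RefSeq accession matched 1 of the 32 symbols. All 32 were matched, by 60 of the 61657 non-control probes, and all 32 were well above background on all 6 arrays, among 32428 features tested (genes, or probes without a gene name). Glyatl2 is also called Keg1 and G6pc1 is also called G6pc. The members were given as a list and not picked from these measurements, but the list was drawn up with earlier results of these data known.

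Renal cortex of male Sprague-Dawley rats, of the Crl:CD(SD) stock and 5 weeks old at purchase, was compared between 2 treatments of 4 weeks. In the control group 3 rats received corn oil. In the other group 3 rats received o-nitroanisole, a nitroaromatic compound, at 400 mg/kg/day. Both groups had the same basal diet and tap water, each rat gave 1 array of total RNA, and the labels describe the 3 arrays per group as biological replicates. The comparison asks how the compound alters transcript levels in the tissue where the proximal tubule makes up most of the mass.

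The proximal tubule is the first stretch of the nephron after the glomerulus. Its cells take up filtered proteins through the receptors megalin and cubilin, cut filtered peptides with peptidases of the brush border, and carry sugars, amino acids, organic acids and bicarbonate back to the blood. They also make glucose and ammonia from glutamine and lactate. The early segments, S1 and S2, take up the bulk of the load, and the last segment, S3, carries high-affinity transporters and many peptidases.

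Signals are given as multiples of the 75th percentile of the non-control probes of the same array, called relative signal here. Differences are log2 values, o-nitroanisole minus corn oil, each with limma's moderated standard error (SE) and 3 rats per group. No level is compared between different probes. Well above background were 66.4% to 71.5% of the non-control probes per array, and precision is limited by how few arrays there are. One slide carried every corn oil array and another every o-nitroanisole array, so slide and treatment cannot be told apart in any value below.

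The labelled tissue held its defining markers: all 8 proximal tubule markers outside the member list, among them the glucose transporter gene Slc5a2 and the organic anion transporter gene Slc22a6, were well above background on all 6 arrays. Their mean log2 relative signal lay between 5.87 and 5.98 on corn oil arrays and between 6.06 and 6.08 on o-nitroanisole arrays. Of these 8 markers, 4 were higher without overlap and 0 lower. Markers of some other cells also moved with the groups. All 5 tested red blood cell markers were higher without overlap (mean log2 relative signal 3.48 to 3.78 against 4.53 to 4.91), as were 6 of 7 collecting duct markers (4.41 to 4.53 against 4.75 to 4.90), with Slc4a1 in both lists. Of 3 tested loop of Henle markers, 2 were lower without overlap (3.06 to 3.16 against 2.74 to 2.98). Of 5 fibroblast markers 4 had lower values, with 1 lower and 1 higher without overlap, and their mean separated the groups (1.80 to 1.92 against 1.60 to 1.72). For 5 leukocyte markers the ranges overlapped (-0.33 to 0.29 against -0.14 to 0.52). The part of these cells in the results below was not tested. In a piece of tissue, fewer cells of a type and less RNA per cell cannot be told apart.

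Among the members, the oligopeptide transporter gene Slc15a1 and the acyltransferase-like gene Glyatl2 stood about 1 log2 unit higher in o-nitroanisole, and Pck1 of glucose synthesis stood 0.57 higher. The meprin subunit Mep1b, the aminopeptidase Anpep and the creatine synthesis gene Gatm stood 0.72 to 0.94 lower, while the uptake receptors Lrp2 and Cubn lay at -0.10 and 0.20. With limma's default moderation 0 of the 32 members passed an adjusted p of 0.05, against 0 of all 32428 features (0%). With eBayes' trend and robust options switched on, 4 members passed: Slc15a1, Glyatl2, Slc13a2 and Slc13a3, all higher. Of all 32428 features 1.61% passed this fit, made up of 1.24% higher and 0.373% lower. Leaving out 1 array at a time, the same fit called 0 members in 5 of 6 cases and only Glyatl2 without corn oil replicate 3. At limma's unadjusted p under 0.05 there were 9 members higher, against 11.8% of all features, and 4 lower, against 7.12%.

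For 16 of the 32 members the groups did not overlap, 10 higher and 6 lower. Over all features, groups did not overlap for 27.2%, higher for 17.6% and lower for 9.56%. Most members are bright, and brightness bears on this share. Among the 3972 features with a mean relative signal of at least 10, a limit set after seeing the data, groups did not overlap for 48.3%, higher for 43.9% and lower for 4.33%. The 28 members above that limit held 9 higher (32.1%) and 6 lower (21.4%). Their median difference of 0.09 log2 lay beside a median of 0.10 over those bright features and of 0.03 over all features. Under quantile scaling, which draws the brightest probes of all arrays to the same values, 5 members were higher and 11 lower without overlap, where all features gave 13.2% and 11.5%. Fbp1, Glud1, Pdzk1, Slc4a4 and Ass1 no longer separated the groups on the higher side, while Lrp2, Amn, Dab2, Hao2 and Kap then did so on the lower side. Slc15a1, Glyatl2, Pck1, Slc13a2, Mep1b, Anpep, Gatm and Slc13a1 kept their sign and their separation under quantile scaling. With both directions added, the share without overlap of members with a relative signal of at least 10 was near that of all features above this limit. Split by direction, the members' higher share lay below and their lower share above that of those features. The limit does not match brightness, so those features are not shown to be as bright as the members. These shares are a description of a chosen list and were not tested. Counts without overlap given below for role groups and other lists stand beside the shares of all features, and most also beside those of bright features.

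**Figure D1:**
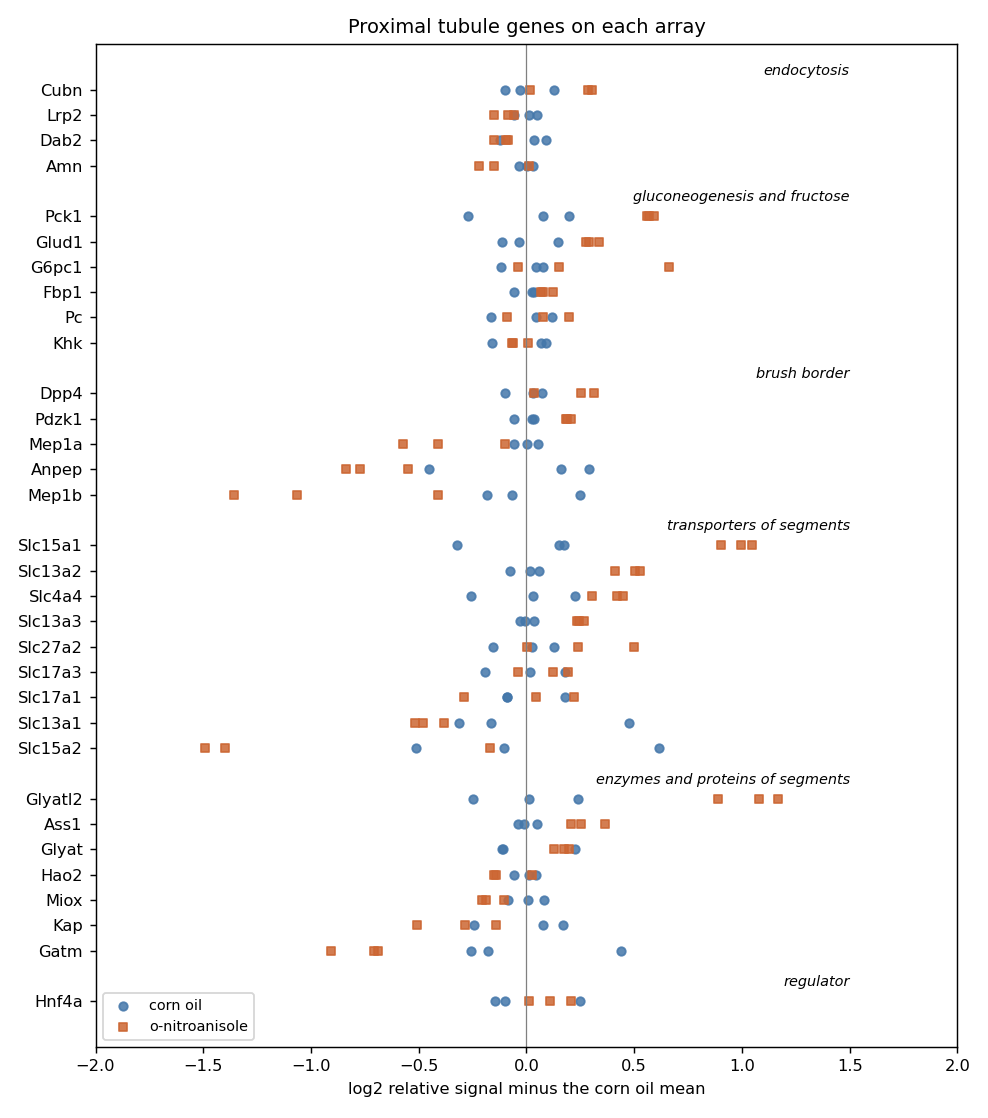
Log2 relative signal of each member on each array minus the mean of the corn oil arrays (x axis), with genes in rows grouped by role; circles are the 3 corn oil rats and squares the 3 o-nitroanisole rats. Slc15a1, Glyatl2 and Pck1 lie to the right of all corn oil circles, Mep1b, Anpep and Gatm to the left, and the endocytosis genes near 0.

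Endocytosis began the list with 4 genes, none of which separated the groups, where 27.2% of all features did. Lrp2 encodes megalin, the large receptor that takes up filtered proteins. Its brightest probe had relative signals of 82.4, 76.6 and 80.5 in corn oil and 76.7, 75.2 and 71.8 in o-nitroanisole, a difference of -0.10 ± 0.06 log2 (adjusted p = 0.450). The groups met at the boundary, corn oil replicate 2 lying just below o-nitroanisole replicate 1. A second, dimmer Lrp2 probe gave -0.33 ± 0.09 log2 with groups that did not overlap (adjusted p = 0.156, each probe tested singly), so the probes of this gene disagree in size. Under normexp background correction the brightest probe gave -0.23.

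Cubn encodes cubilin, the receptor that works with megalin and binds the intrinsic factor-vitamin B12 complex and albumin. Its relative signals were 36.2, 42.4 and 38.0 in corn oil and 47.3, 47.9 and 39.2 in o-nitroanisole, a difference of 0.20 ± 0.11 log2 (adjusted p = 0.381). Replicate 3 of o-nitroanisole lay inside the corn oil range and the other two lay above it. Under normexp the difference was 0.08. Amn, the membrane anchor that carries cubilin to the surface, lay at -0.12 ± 0.08, and Dab2, the adaptor that links megalin to the clathrin coat, at -0.11 ± 0.08, with both Dab2 probes at about that value. The sign of Dab2 turned to 0.04 under normexp. Under quantile scaling Lrp2, Amn and Dab2 were lower without overlap, at -0.24, -0.24 and -0.21 log2.

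The further genes of uptake and lysosome showed values for 25 of 30 listed genes, of which 7 were higher without overlap and 0 lower, with a median of 0.05 log2; under quantile scaling these were 3 and 2, with a median of -0.0055. Without overlap, 17.6% of all features were higher and 9.56% lower. Features with a mean relative signal of at least 10 gave 43.9% and 4.33%. None of the 25 genes passed limma's adjusted p of 0.05 with default moderation, and 4 were at an unadjusted p under 0.05. With trend and robust moderation 1 gene passed, Ctsd, against 1.24% of all features on the higher side. Highest was Ctsd, the lysosomal protease cathepsin D, at relative signals of 79.1 to 84.2 in corn oil against 104 to 112 in o-nitroanisole. Its difference was 0.40 ± 0.06 log2 (adjusted p = 0.0969, and 0.0248 with trend and robust moderation). The proton pump subunit Atp6v1b2 lay at 0.39 ± 0.08, the cobalamin carrier Tcn2 at 0.37 ± 0.14 and the protease Ctsl at 0.33 ± 0.12. Clathrin heavy chain (Cltc) at 0.03 ± 0.07 and the early endosome gene Rab5a at 0.04 ± 0.10 had groups that overlapped. The proton pump also works in the intercalated cells of the collecting duct, whose markers were higher here, and that part was not tested.

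Glucose synthesis and fructose handling gave 6 members, 3 of them higher without overlap and 0 lower. Over all features 17.6% were higher and 9.56% lower without overlap. Those with a mean relative signal of at least 10, as these members have, gave 43.9% and 4.33%. Pck1 encodes the cytosolic phosphoenolpyruvate carboxykinase that commits carbon to glucose. It had relative signals of 132, 183 and 168 in corn oil and 241, 237 and 235 in o-nitroanisole. All treated rats lay above all controls and close to each other, while the controls spread more widely. The difference was 0.57 ± 0.13 log2, a 1.49-fold higher level (adjusted p = 0.130), and with any 1 array left out it lay between 0.44 and 0.67. Its second probe gave 0.61 ± 0.15.

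Glud1, the mitochondrial glutamate dehydrogenase that releases ammonia from glutamate, had 69.2, 73.2 and 82.8 in corn oil and 91.5, 94.4 and 90.5 in o-nitroanisole. No array of one group entered the range of the other. The difference was 0.30 ± 0.08 log2 (adjusted p = 0.161), with its other probes at 0.35 and 0.47. Under quantile scaling it was 0.15 and the groups overlapped.

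G6pc1, the glucose-6-phosphatase that releases free glucose, had 116, 133 and 130 in corn oil and 200, 140 and 123 in o-nitroanisole. Only o-nitroanisole replicate 1 stood far above the controls, and without it the difference of 0.26 ± 0.19 log2 came to 0.055. Fbp1, fructose-1,6-bisphosphatase, lay at 0.09 ± 0.06 with groups that just failed to touch. The second Fbp1 probe, at 0.15 ± 0.08, had overlapping groups. Pc, the pyruvate carboxylase that feeds the pathway, lay at 0.06 ± 0.11, and Khk, the first enzyme of fructose use, at -0.04 ± 0.09, both with overlapping groups. Values in the pathway thus ran from -0.04 for Khk to 0.57 for Pck1, and differences between these enzymes were not tested.

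Of the other genes of gluconeogenesis, glycolysis and ammonia handling, all 34 were tested, and 17 were higher and 6 lower without overlap, with a median of 0.18 log2; quantile scaling gave 9 and 6, with a median of 0.05. The shares without overlap were 17.6% higher and 9.56% lower over all features. They were 43.9% and 4.33% over features with a mean relative signal of at least 10. At limma's unadjusted p under 0.05 there were 15 higher and 4 lower genes of this list, and 0 passed the adjusted threshold. With trend and robust moderation 2 passed it, both higher, against 1.24% of all features. The glucose carrier Slc2a2 (GLUT2), by which glucose leaves the cell, had 9.91, 13.5 and 12.2 against 19.5, 16.9 and 19.0, a difference of 0.64 ± 0.13 log2 (adjusted p = 0.121). The fructose carrier Slc2a5 (GLUT5) went the other way, with 7.71, 7.74 and 5.48 against 4.25, 3.29 and 3.39, a difference of -0.93 ± 0.18 (adjusted p = 0.116). Both carriers separated the groups fully. Fbp2 lay at 0.60 ± 0.13 and the mitochondrial dicarboxylate carrier Slc25a10 at 0.56 ± 0.11. Glul, which uses ammonia to make glutamine, lay at -0.33 ± 0.09 and Ppargc1a, a coactivator of glucose synthesis genes, at -0.25 ± 0.07; both were named after their values were seen.

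The brush border members were 5, of which 3 were lower without overlap and 1 higher. All features gave 9.56% lower and 17.6% higher, and those with a mean relative signal of at least 10 gave 4.33% and 43.9%. Mep1b encodes the beta subunit of meprin, a zinc protease of the apical membrane. Its relative signals were 42.7, 31.7 and 34.3 in corn oil and 27.1, 14.0 and 17.2 in o-nitroanisole. Every treated rat lay below every control, and replicate 1 of o-nitroanisole lay nearest the controls. The difference was -0.94 ± 0.26 log2, a 1.92-fold lower level (adjusted p = 0.161), and with any 1 array left out it lay between -1.21 and -0.74. The second Mep1b probe separated the groups in the same direction.

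Mep1a, the alpha subunit of meprin, had 16.8, 16.0 and 17.4 against 15.6, 12.6 and 11.2. The groups were separate but near each other at replicate 1 of o-nitroanisole, as for Mep1b. The difference was -0.36 ± 0.13 (adjusted p = 0.226), and the second probe, at -0.24 ± 0.13, had overlapping groups.

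Anpep, aminopeptidase N, removes amino acids from the ends of filtered peptides. It had 16.6, 25.3 and 27.7 in corn oil and 15.5, 12.7 and 13.3 in o-nitroanisole. Corn oil replicate 1 lay close to the treated rats, and the other two controls lay far above them. The difference was -0.72 ± 0.21 log2 (adjusted p = 0.172), from -0.95 to -0.58 on leaving out 1 array. Under median scaling the Anpep and Mep1a groups overlapped, with differences of -0.70 and -0.34.

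Not every peptidase followed that direction. Dpp4, dipeptidyl peptidase 4, lay at 0.20 ± 0.10 log2 (adjusted p = 0.336) with overlapping groups, and its 3 probes lay at 0.20, 0.12 and -0.12. Pdzk1, a scaffold that holds transporters at the brush border, had 70.8, 75.7 and 75.1 against 83.9, 84.0 and 85.3, a small and even difference of 0.19 ± 0.06 (adjusted p = 0.176). Under quantile scaling it was 0.05 and the groups overlapped.

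**Figure D2:**
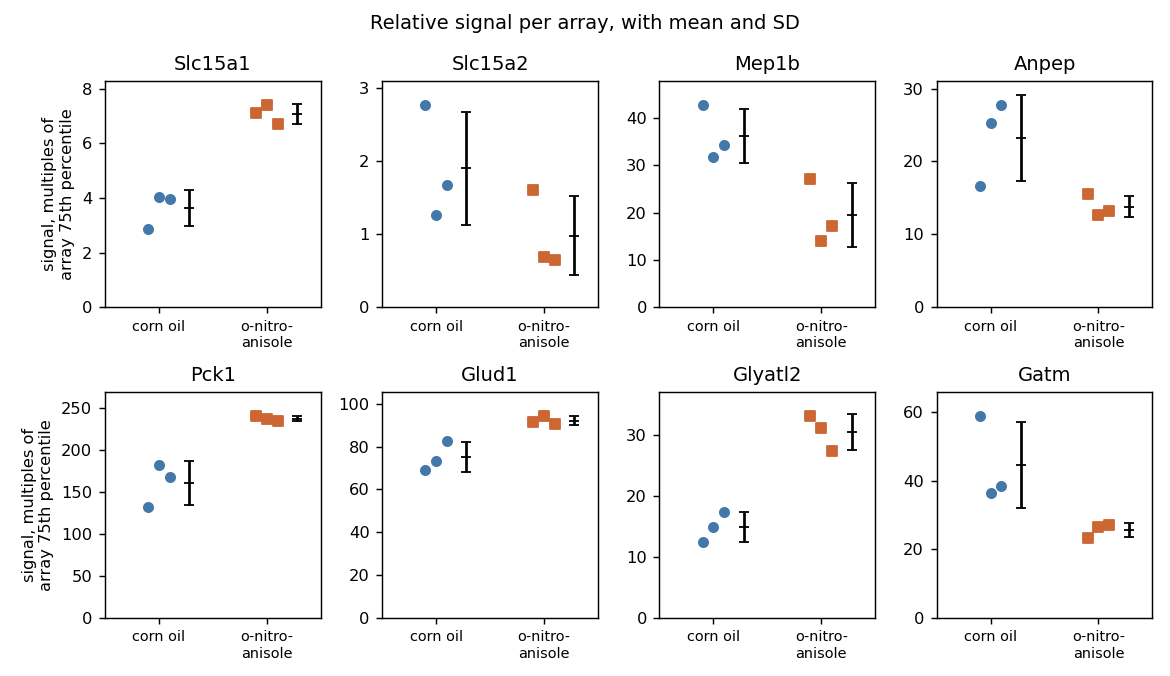
Relative signal (multiples of the array's 75th percentile, y axis from 0) of 8 members on each array; circles are corn oil rats, squares o-nitroanisole rats, and bars the mean ± SD of 3. Slc15a2 is the gene here whose groups overlap, and for Slc15a1 and Glyatl2 all treated rats lie far above all controls.

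Among 23 other brush border genes tested of 26 listed, 7 were lower and 2 higher without overlap (11 and 1 under quantile scaling). Their median was -0.09 log2. With limma's default moderation 0 passed an adjusted p of 0.05, and 7 lower and 2 higher had an unadjusted p under 0.05. With trend and robust moderation 1 gene passed, lower, against 0.373% of all features. Lower without overlap were 9.56% of all features and 4.33% of those with a mean relative signal of at least 10. Higher were 17.6% and 43.9%. The mean log2 relative signal of this list was 2.81 to 2.93 on corn oil arrays. That is below the log2 of the limit, so bright features are no match for the list. Peptidases were among the lower genes of the list. Mme, neprilysin, had 20.7, 11.7 and 19.4 against 11.5, 8.22 and 8.75, a difference of -0.84 ± 0.25 (adjusted p = 0.180). Ace, the angiotensin-converting enzyme, lay at -0.58 ± 0.12 by its brightest probe, with its 3 probes between -1.03 and -0.58. Both separated the groups, though Mme only narrowly. The amino acid transporter Slc6a19 lay at 0.47 ± 0.11, and structural genes of the microvilli were mixed: Espn lay at -0.39 ± 0.08, Vil1 at -0.27 ± 0.12 and Ezr at 0.03 ± 0.07. The last 3 were named after their values were seen.

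Transporters of the segments gave 9 members, 4 higher and 1 lower without overlap. All features gave 17.6% higher and 9.56% lower, and those with a mean relative signal of at least 10 gave 43.9% and 4.33%. Slc15a1, Slc15a2 and Slc17a1 lay below that limit. Slc15a1 and Slc15a2 are the low-affinity and the high-affinity carriers of di- and tripeptides, placed in the early and the late proximal tubule. Slc15a1 had relative signals of 2.86, 4.04 and 3.97 in corn oil and 7.13, 7.40 and 6.70 in o-nitroanisole. The lowest treated rat stood well above the highest control. The difference was 0.98 ± 0.15 log2, a 1.98-fold higher level (adjusted p = 0.0961, and 0.0381 with trend and robust moderation), with its 3 probes between 0.94 and 0.98.

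Slc15a2 had 2.77, 1.27 and 1.68 in corn oil and 1.60, 0.685 and 0.642 in o-nitroanisole. Replicate 1 of o-nitroanisole lay inside the control range and the other two below it. The difference was -1.02 ± 0.45 log2 (adjusted p = 0.300), from -1.44 to -0.71 on leaving out 1 array, with an SE above that of Slc15a1, and it rests on 1 probe. It was described in full after its values were seen.

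The SLC13 members carry sulfate and dicarboxylates with sodium. Slc13a1, the sulfate carrier, had 35.9, 23.0 and 20.7 in corn oil and 18.0, 19.8 and 18.5 in o-nitroanisole. Corn oil replicate 1 stood apart from the other controls, and the remaining gap to the treated rats was small. The difference was -0.46 ± 0.21 log2 (adjusted p = 0.314) and -0.22 without corn oil replicate 1. Slc13a2, the apical citrate and succinate carrier, had 30.7, 33.7 and 32.7 against 43.0, 46.6 and 45.9, a difference of 0.48 ± 0.07 (adjusted p = 0.0910, and 0.0248 with trend and robust moderation). Both groups were tight. A further probe gave 0.52 ± 0.06 and the dimmest only 0.10 ± 0.06. Slc13a3, the basolateral dicarboxylate carrier, had 351, 335 and 341 against 405, 402 and 412, a difference of 0.25 ± 0.05 (adjusted p = 0.129, and 0.0325 with trend and robust moderation). Under normexp it was 0.13.

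Slc4a4 encodes the sodium bicarbonate cotransporter that returns bicarbonate to the blood. It had 35.6, 49.7 and 43.3 in corn oil and 52.4, 56.9 and 58.0 in o-nitroanisole, a difference of 0.39 ± 0.13 (adjusted p = 0.209), with 3 probes between 0.37 and 0.39. The treated rats lay above the controls, with corn oil replicate 2 the nearest, and under quantile scaling, at 0.28, the groups overlapped. Slc27a2, which takes up and activates long-chain fatty acids, lay at 0.25 ± 0.15, with the second probe at 0.02. The organic anion and urate carriers Slc17a3 at 0.09 ± 0.12 and Slc17a1 at -0.01 ± 0.15 had overlapping groups, and the sign of Slc17a1 turned under normexp and under median scaling.

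**Figure D3:**
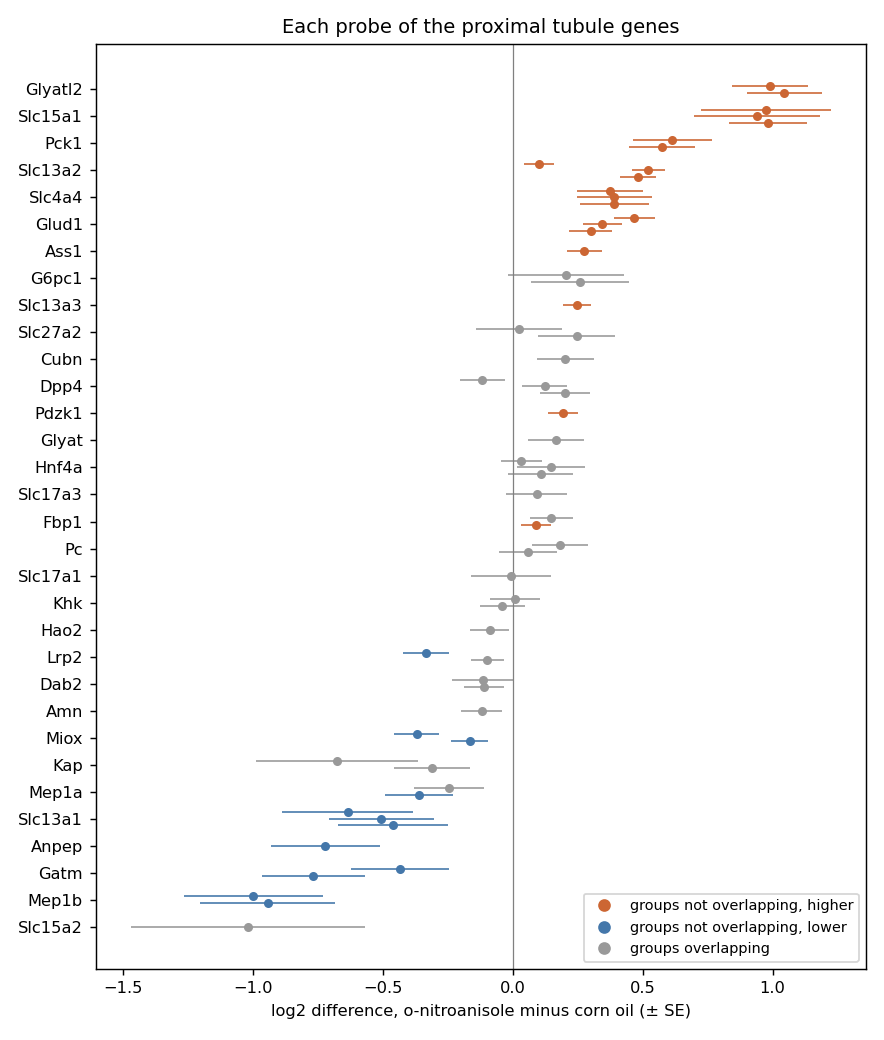
Log2 difference, o-nitroanisole minus corn oil, of each of the 60 probes (points, with SE bars) of the 32 members, ordered by the difference of the brightest probe. Orange points are higher and blue points lower without overlap between groups; the probes of Slc15a1, Slc4a4, Pck1 and Mep1b lie close together, and those of Slc13a2, Dpp4 and Lrp2 lie apart.

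Of the 21 members with several probes, 19 had all probes on one side of 0, the exceptions being Dpp4 and Khk. For 10 of the 21, every probe had groups that did not overlap in one direction: Slc15a1, Slc13a2, Slc4a4, Pck1, Glud1 and Glyatl2 higher, and Mep1b, Gatm, Slc13a1 and Miox lower. The probes of a gene share the rat, the array and the RNA and are no further replicates.

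The enzymes and other proteins of the segments gave 7 members, 2 higher and 2 lower without overlap. All features gave 17.6% higher and 9.56% lower, and those with a mean relative signal of at least 10 gave 43.9% and 4.33%. Glyatl2 belongs to the glycine N-acyltransferase family, whose members join glycine to acyl groups. It had relative signals of 12.4, 14.9 and 17.4 in corn oil and 33.2, 31.2 and 27.4 in o-nitroanisole. The lowest treated rat was far above the highest control. The difference was 1.05 ± 0.14 log2, a 2.06-fold higher level (adjusted p = 0.0880, 0.0342 with trend and robust moderation and 0.0461 under normexp). Its relative Glyat, which conjugates benzoate to form hippurate, had 56.1, 56.3 and 71.1 against 68.5, 69.7 and 66.4, and at 0.17 ± 0.11 the groups overlapped.

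Gatm, glycine amidinotransferase, makes the precursor of creatine. It had 58.9, 36.4 and 38.4 in corn oil and 23.2, 26.6 and 27.0 in o-nitroanisole. All treated rats lay below all controls, with corn oil replicate 1 far above the rest. The difference was -0.77 ± 0.20 log2, a 1.70-fold lower level (adjusted p = 0.151), and -0.55 without corn oil replicate 1. Its second probe gave -0.43 ± 0.19. Ass1, argininosuccinate synthase, which starts the renal synthesis of arginine from citrulline, had 57.6, 61.3 and 58.8 against 70.6, 76.3 and 68.5, a difference of 0.28 ± 0.07 (adjusted p = 0.145). Under quantile scaling it was 0.14 and the groups overlapped; under normexp it was 0.43.

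Miox, the oxygenase that opens the inositol ring, had 629, 560 and 597 against 521, 516 and 553, a difference of -0.17 ± 0.07 with groups that barely separated; under normexp it was -0.05. Its second probe gave -0.37 ± 0.09. Kap, the androgen-regulated kidney protein, had 610, 458 and 573 against 445, 382 and 492. The groups overlapped, and the difference was -0.31 ± 0.15, with the second probe at -0.68 ± 0.31. Hao2, a peroxisomal hydroxyacid oxidase, lay at -0.09 ± 0.07.

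Of 29 tested genes of amino acid, creatine, glycine and inositol metabolism outside the members (31 were listed), 12 were higher and 1 lower without overlap, with a median of 0.15 log2; quantile scaling gave 9 and 4. All features gave 17.6% higher and 9.56% lower without overlap, and those with a mean relative signal of at least 10 gave 43.9% and 4.33%. At an unadjusted p under 0.05 limma gave 11 higher and 1 lower genes of this list, and 0 passed the adjusted threshold. With trend and robust moderation 1 passed it, Asl. Asl, the next enzyme after Ass1 in arginine synthesis, had 26.4, 31.3 and 30.2 in corn oil and 51.9, 52.1 and 48.1 in o-nitroanisole, a wide and even separation of 0.79 ± 0.09 log2 (adjusted p = 0.0713, and 0.0242 with trend and robust moderation). Bhmt, which methylates homocysteine from betaine, lay at 1.00 ± 0.26, and Prodh, the first enzyme of proline breakdown, at 0.63 ± 0.18. Hao1 lay at -0.72 ± 0.16.

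The segment lists, beyond the members, ran in different directions. The S1 and S2 list shares Slc5a2, Slc5a12, Slc7a7, Slc22a6, Slc22a8 and Slc34a1 with the proximal tubule markers above. Slc2a2 is also in the glucose list, and Slc34a1 and Slc6a19 are also in the brush border list. The brush border list shares Ggt1 with the markers as well. Counts of these lists are therefore not separate evidence. Of 10 tested carriers typical of S1 and S2, 6 were higher and 1 lower without overlap, with a median of 0.26 log2; quantile scaling gave 4 and 2, with a median of 0.14. Of 12 tested genes typical of S3, 6 were lower and 1 higher, with a median of -0.38 and the same counts under quantile scaling. Over all features the median was 0.03, and 17.6% were higher and 9.56% lower without overlap. Features with a mean relative signal of at least 10 had a median of 0.10, with 43.9% higher and 4.33% lower. On corn oil arrays the mean log2 relative signal of the S1 and S2 carriers was 5.07 to 5.27. That of the S3 genes was 2.08 to 2.17, below the log2 of that limit, so bright features are no match for the S3 list. With limma's default moderation no gene of either list passed an adjusted p of 0.05. With trend and robust moderation 1 S1 and S2 gene passed, higher, and of the S3 genes 1 higher and 2 lower. Over all features that fit called 1.24% higher and 0.373% lower. At an unadjusted p under 0.05 the default counts were 5 higher and 1 lower for S1 and S2. They were 1 higher and 5 lower for S3. Under quantile, median and normexp settings 10 of the 12 S3 genes were lower each time, and 8 or 9 of the 10 S1 and S2 genes higher. The lists were drawn up with Slc7a12 and Slc22a7 already known to be lower here, so their direction adds nothing independent. The difference between the lists was not tested.

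On the S3 side, the amino acid transporter Slc7a13 had 176, 103 and 152 in corn oil and 81.8, 40.7 and 43.5 in o-nitroanisole, a difference of -1.41 ± 0.33 log2 (adjusted p = 0.138). Replicate 1 of o-nitroanisole again lay nearest the controls. Slc7a12 lay at -1.86 ± 0.20 and Slc22a7 at -0.94 ± 0.13, while Slc5a8, a monocarboxylate carrier, had 1.13, 1.46 and 0.852 against 3.40, 3.26 and 2.48 and went the other way at 1.43 ± 0.23 (adjusted p = 0.0979). On the S1 and S2 side, Slc5a12, the lactate carrier, lay at 0.43 ± 0.15, and Slc22a2, an organic cation carrier, was the exception at -0.76 ± 0.20.

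**Figure D4:**
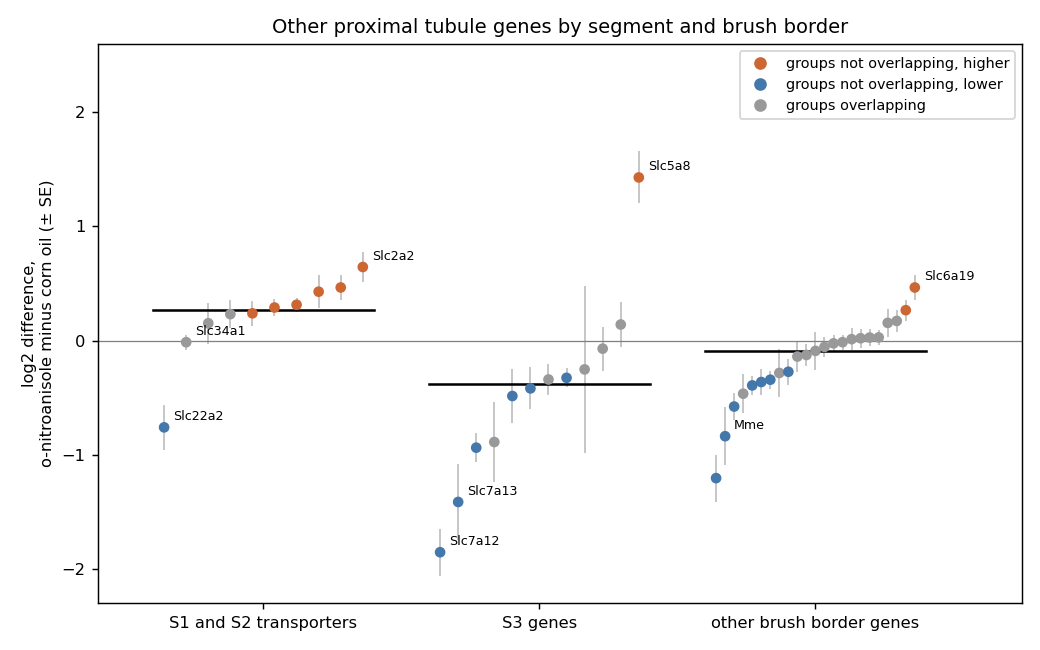
Log2 difference, o-nitroanisole minus corn oil (points, with SE bars), of genes outside the members in 3 lists: S1 and S2 transporters, S3 genes and other brush border genes. Slc34a1 and Slc6a19 are drawn in both the S1 and S2 list and the brush border list. Horizontal bars are the list medians of 0.26, -0.38 and -0.09; orange and blue points mark genes whose groups did not overlap, and Slc5a8 and Slc22a2 lie against the direction of their lists.

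Hnf4a, a nuclear receptor that controls many proximal tubule genes, had relative signals of 1.46, 1.14 and 1.11 in corn oil and 1.32, 1.41 and 1.24 in o-nitroanisole. The treated rats lay inside the control range, and the difference was 0.11 ± 0.12 log2 (adjusted p = 0.674), with its 3 probes between 0.03 and 0.15. Of 11 other tested regulators of the tubule, 4 were higher and 0 lower without overlap: Nr1h4, the bile acid receptor FXR, at 0.36 ± 0.10, Rxra at 0.28 ± 0.06, Esrra at 0.16 ± 0.07 and Lrpprc at 0.08 ± 0.06, where limma's smallest adjusted p was 0.121. These counts were 2 higher and 1 lower under quantile scaling and 3 and 1 under normexp. In the main fit 17.6% of all features were higher and 9.56% lower without overlap. Ppara, a regulator of fatty acid oxidation, lay at 0.82 ± 0.46 and Maf at -0.60 ± 0.22, with wide spread and overlapping groups. Both were named after their values were seen.

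The promoters of the members were searched for the letters of the HNF4 core and of the cAMP response element core. The search ran from 250 bases before to 50 bases after the start, on both strands. RefSeq on GRCr8 gave 31 promoters for 30 members (Hnf4a has a further start). The members without one were Glyat and Pc. The HNF4 core CAAAGTCC was in 1 of 31 (3.23%), that of Pdzk1, against 1.4% of all 33469 promoters. The core of the cAMP response element, the letters TGACG, was in 5 (16.1%, against 21.2%): those of Pck1, Mep1b, Pdzk1, Slc15a1 and Slc15a2. These are matches of letters and not shown sites. The promoter of Pck1 is shown because cAMP is a known inducer of this gene, and those of Slc15a1 and Slc15a2 because the values of these related carriers lay on opposite sides of 0. Capitals mark the cAMP element core on either strand, and no matches overlap. The positions on GRCr8 are chr3:182348322-182348621 on the plus strand for Pck1, chr15:104949295-104949594 on the minus strand for Slc15a1 and chr11:77519315-77519614 on the plus strand for Slc15a2, each printed 5′ to 3′ along its gene.
Pck1: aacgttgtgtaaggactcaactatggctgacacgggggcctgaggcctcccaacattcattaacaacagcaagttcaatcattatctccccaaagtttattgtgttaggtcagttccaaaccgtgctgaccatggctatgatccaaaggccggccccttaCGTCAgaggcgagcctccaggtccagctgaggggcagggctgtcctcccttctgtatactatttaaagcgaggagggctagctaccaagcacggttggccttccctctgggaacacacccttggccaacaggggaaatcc
Slc15a1: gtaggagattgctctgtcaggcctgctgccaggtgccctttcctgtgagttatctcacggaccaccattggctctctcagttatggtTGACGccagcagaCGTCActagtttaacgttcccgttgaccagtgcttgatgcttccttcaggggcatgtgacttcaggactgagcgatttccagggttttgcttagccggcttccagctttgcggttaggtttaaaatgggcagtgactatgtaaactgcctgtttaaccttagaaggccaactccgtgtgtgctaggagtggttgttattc
Slc15a2: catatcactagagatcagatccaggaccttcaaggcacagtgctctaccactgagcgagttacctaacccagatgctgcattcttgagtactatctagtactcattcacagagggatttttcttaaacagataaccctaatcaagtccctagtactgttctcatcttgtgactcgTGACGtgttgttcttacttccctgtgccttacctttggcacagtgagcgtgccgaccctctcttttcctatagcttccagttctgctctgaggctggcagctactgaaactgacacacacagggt

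In these windows Pck1, at 0.57 log2, held TGACG on the opposite strand, 90 bases before its start. Slc15a1, at 0.98 log2, held 2 matches of TGACG and Slc15a2, at -1.02 log2, held 1. The groups of Slc15a2 overlapped, and whether these letters bear on any of the differences was not tested.

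Rats of one group were not alike for these genes. Over the 16 members whose groups did not overlap, corn oil replicate 1 was the control farthest from the treated mean for 12, and corn oil replicate 2 the nearest for 11. Within o-nitroanisole, replicate 2 was the farthest for 7, replicate 3 for 5 and replicate 1 for 4. The SD of log2 relative signal over the members had a median of 0.14 in corn oil and 0.10 in o-nitroanisole, with the highest values 0.57 and 0.74, both for Slc15a2.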

How the data were processed

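Total RNA of 6 renal cortex samples was labelled with Cy3 and hybridised to 1-colour Agilent arrays. Per the file headers and the submitters' processing notes, spots were read with Agilent Feature Extraction 10.7 and the array design names build rn4. The deposited processed signal is an intensity, background-subtracted and detrended within the array, with no scaling between arrays. The value table deposited by the authors holds a ratio: each column equalled the processed signal of 1 scanner file over its 75th percentile, within 1% for 100% of probes well above background. Its 3 corn oil columns equalled those rats' scanner files in a different order, so which rat bears which number is uncertain; numbers follow the scanner files.

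Each processed signal was divided by its array's 75th percentile and taken to log2, with outlier spots set to missing and 84 spike-in probes left out. Probes took symbols through RefSeq accessions in a GRCr8 gene table (27460 of 33356 matched). Probes entered the test when all 3 arrays of a group read them well above background, and the brightest probe stood for a gene. The test was lmFit and eBayes from limma 3.58.1 under R 4.3.3, with Benjamini-Hochberg adjustment over 32428 features, after the fit was tested on simulated data. Tables and plots used Python 3.11.15, pandas 2.3.3, numpy 2.4.6 and matplotlib 3.10.9.

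The members, lists and rules were chosen with earlier results of these data known. All members were named. Values on every array were due for Lrp2, Cubn, Pck1, Slc13a1, Hnf4a, members differing by at least 0.5 log2 without overlap, and otherwise the largest difference of each role; other members were added after their values were seen. Of each other list, up to 4 genes without overlap were named; a few list genes are not reported here. Normexp (offset 50) used the median signal, since the mean signal is not used here. The replicate numbers were not shown to pair rats. The SE of a difference and every p rest on the spread between these rats, moderated by limma with a variance drawn from all features tested. They measure no spread beyond these rats.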

Additional observations from a re-analysis of the deposited data

How the results depend on the processing

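The count of 0 features and 0 members passing limma's adjusted p of 0.05 was the same with quantile or median scaling, without a dim filter, with detection on all 6 arrays, with outlier spots kept, with probes averaged and with the value table; with each probe tested singly, added after seeing the data, 0 features passed. Normexp called 115 features and 1 member (Glyatl2), the trend and robust fit 522 and 4, and an unadjusted p under 0.05 gave 6142 and 13. Leaving out 1 array gave 0 to 8 features and 0 members; with the trend and robust fit, added after seeing the data, it gave 0, 25 and 24 features without o-nitroanisole replicates 2, 1 and 3, and 6, 58 and 67 without corn oil replicates 1, 2 and 3, and 0 to 1 members. The number of members without overlap, 16, was 13 under median scaling, 17 under normexp and 17 to 22 on leaving out 1 array, where fewer arrays make overlap rarer. Signs turned for values near 0: Dab2 to 0.043 and Slc17a1 to 0.160 under normexp, Slc17a1 to 0.010 under median scaling and Pc to -0.090 under quantile scaling. With 1 array left out, Khk spanned -0.120 to 0.0046, Pc -0.023 to 0.136, Slc17a1 -0.123 to 0.132 and Slc17a3 -0.0053 to 0.180. What causes these sign changes was not tested. With the replicate block 0 features and 0 members passed; arrays that share a number deviated together with correlations of only 0.091, 0.058 and 0.026, so the pairing is not shown, and the block changed no call. A slide term could not be fitted because each slide holds 1 group. The number of arrays, 3 per group, limits all of these values.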
